A study of Mus musculus with 16 samples.

Results

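Titin (Ttn), nebulin (Neb) and dystrophin (Dmd) encode 3 of the giant proteins of the muscle fibre. All mRNA-table rows with 1 of these 3 gene names were used, which gave 51 transcript rows out of 82388 and 3 gene names out of 23235. Ttn had 24 rows, Neb 13 and Dmd 14. The genes were picked by name with earlier results of these data known, and no level or fold threshold was applied to them. Each row's share, meaning its percentage of the summed counts of its gene in a mouse, was examined beside the sum itself.

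Titin spans the sarcomere from the Z-disc to the M-band and acts as a molecular spring, and its length is set by alternative splicing of the spring region. Nebulin runs along the thin filament and takes part in setting its length, and it also exists in many splice forms. Dystrophin links the cortical actin of the fibre to the glycoprotein complex of the membrane, and the same gene makes shorter proteins from internal promoters.

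The 16 male mice were of strain C57BL/6 (C57BL/6J in the protocol), 6 weeks old at the start, with 4 mice and 4 libraries in each of 4 groups. The control group received normal diet. The HFD group received a high-fat diet (D12492J, 60% fat) for 8 weeks as a model of insulin resistance. The HFD + RSV group received that diet and then resveratrol, a plant polyphenol, and the HFD + MET group received that diet and then metformin, a glucose-lowering drug, each for 6 weeks. The labels gave neither the doses, nor the diet during treatment, nor which muscle was sampled. The first number in the mouse labels, whose meaning is not given, was the same for all 4 HFD mice, so anything shared through it cannot be told apart from the diet.

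The total count per mouse over both deposited tables was 20281801 to 34021101. The tissue label was compared with marker genes: 10 of 10 skeletal muscle markers passed the filter on low counts, with a summed level of 71325 to 111420 CPM (counts scaled to a common library size). One protocol field names retina as the dissected tissue, but the 5 retina markers in the table summed to at most 1.69 CPM in any mouse. Adipocyte markers, all 7 of 7 above 0, stood apart in 2 mice: 3338 CPM in control mouse 3 and 3417 CPM in HFD + MET mouse 3, against 62.9 to 1344 CPM in the other 14 mice. In bulk tissue, fewer fibres and less RNA per fibre cannot be told apart.

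All 51 rows were matched by transcript ID to GENCODE M21 (GRCm38), with the same start, end and length. Ttn is on the minus strand at chr2:76703980-76982547, Neb on the minus strand at chr2:52136647-52378474, and Dmd on the plus strand at chrX:82948870-85206141. The GENCODE transcript names are used below. Of the 51 rows, 29 had at least 1 exonic base that no other row of their gene covers, here called private bases. Over all 51 rows the median was 0.0886% of the transcript's length.

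Among the longest titin transcripts in the table, 2 were near copies of each other. Ttn-204 (ENSMUST00000111846, 312 exons, 100404 bases, 33467 residues) and Ttn-205 (ENSMUST00000111882, 313 exons, 101674 bases) encode proteins of equal length, and both lack the large exon that marks the cardiac N2B type. Over the 100404 bases of Ttn-204, Ttn-205 differed at 4 neighbouring bases, positions 98646 to 98649 counted from the 5′ end of Ttn-204. They come from alternative coding exon edges, chr2:76708754-76708764 in Ttn-204 and chr2:76708598-76708608 in Ttn-205. Beyond that, Ttn-205 has only 223 further bases at its 5′ end and 1047 at its 3′ end. The stretch is shown because these bases are what separates the coding parts of the 2 rows, with the differing bases in capitals.
Ttn-204: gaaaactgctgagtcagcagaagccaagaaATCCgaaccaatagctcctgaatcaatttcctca
Ttn-205: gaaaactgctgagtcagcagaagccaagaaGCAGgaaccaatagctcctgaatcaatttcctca

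Ttn-201 (ENSMUST00000011934, 192 exons, 81843 bases, 26886 residues) is the short-spring form. It lacks 22411 exonic bases of Ttn-204, in 123 stretches, and carries a 2646-base coding exon at chr2:76907308-76909953 that Ttn-204 lacks. That exon has the length and place of the N2B element, which is known mainly from heart. All 81843 bases of Ttn-201 are also in Ttn-203 (ENSMUST00000099981, 347 exons, 106824 bases, 35213 residues), the longest form, so Ttn-201 has 0 private bases. Ttn-203 has 611. Ttn-202 (ENSMUST00000099980, 45 exons, 16891 bases, 5508 residues) is different: it ends in a private 6520-base exon that makes up 38.6% of its length, as in the truncated titin form known as novex-3.

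The longest nebulin rows differed in a similar way. Neb-202 (ENSMUST00000036934, 157 exons, 22489 bases, 7152 residues) and Neb-203 (ENSMUST00000075301, 152 exons, 21456 bases, 6909 residues) share 21344 exonic bases. Each has 1 coding exon of 93 bases at the place where the other has its own, chr2:52153056-52153148 (exon 148) in Neb-202 and chr2:52156355-52156447 (exon 143) in Neb-203. Most of the other bases that Neb-202 has alone are in 4 further coding exons. These exons hold the same base at 81 of 93 positions (87.1%). They are shown on the transcript strand because the counts moved between these rows, with the 12 differing positions in capitals.
Neb-202: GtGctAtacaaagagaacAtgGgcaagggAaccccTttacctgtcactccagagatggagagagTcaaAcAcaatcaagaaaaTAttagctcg
Neb-203: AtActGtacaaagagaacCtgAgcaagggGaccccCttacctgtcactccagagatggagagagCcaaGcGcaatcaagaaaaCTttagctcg

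The third gene separates its forms by where they start. Dmd-203 (ENSMUST00000114000, 79 exons, 14910 bases, 3678 residues) is full-length dystrophin. Dmd-201 (ENSMUST00000113991, 18 exons, 4438 bases, 617 residues) and Dmd-202 (ENSMUST00000113992, 17 exons, 1858 bases, 604 residues) start near the 3′ end of the gene and have the length of Dp71, the short dystrophin found in most tissues. The RefSeq promoter table (GRCm38.p6) holds 2 Dmd starts and 1 Ttn start. The 250 bases before each Dmd start are shown, plus strand, because the levels from the 2 starts are compared below. Capitals mark matches to TATAAA, the core promoter element bound by TBP, and to CCGCCC, the box bound by Sp1, each searched on both strands.
Full-length start, chrX:82948620-82948869: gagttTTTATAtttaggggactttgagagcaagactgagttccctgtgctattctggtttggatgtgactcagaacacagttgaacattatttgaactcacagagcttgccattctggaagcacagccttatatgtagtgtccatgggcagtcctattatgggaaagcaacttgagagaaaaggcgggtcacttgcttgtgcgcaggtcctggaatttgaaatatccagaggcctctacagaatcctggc
Short-form start, chrX:85048045-85048294: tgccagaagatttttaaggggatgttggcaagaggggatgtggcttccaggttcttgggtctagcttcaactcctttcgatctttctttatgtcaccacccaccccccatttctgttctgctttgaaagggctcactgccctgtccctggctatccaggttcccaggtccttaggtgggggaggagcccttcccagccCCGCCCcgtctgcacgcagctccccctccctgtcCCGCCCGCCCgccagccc
The full-length window held 1 match to TATAAA, on the reverse strand and far from the start, and 0 to CCGCCC. The short-form window held 0 and 3, and 2 of those 3 overlap. Of 32851 promoter windows of this length, 12.4% hold TATAAA and 32.7% hold CCGCCC. The G and C content was 45.2% before the full-length start and 60.0% before the short-form start, against a median of 52.4%. The rows of the table begin a little past these RefSeq starts, Dmd-203 at 82948903 and Dmd-201 and Dmd-202 at 85048413. A match is only a run of letters, and no binding was measured.

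At the level of the gene, none of the 3 genes passed the test in any comparison. Ttn took 12.8% to 20.2% of all counts in the mRNA table, Neb 1.48% to 2.18% and Dmd 0.0447% to 0.0621%. Levels are given as CPM of the summed counts after TMM scaling, and log2FC values come from edgeR's quasi-likelihood test over 15364 genes with all 16 mice in 1 fit, with Benjamini-Hochberg adjustment.

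Ttn was measured at 199517, 164545, 108932 and 165246 CPM in the control mice. In the HFD mice it was at 214002, 219311, 217539 and 159998 CPM. In the HFD + RSV mice it was at 173726, 153210, 177847 and 195668 CPM, and in the HFD + MET mice at 163131, 177571, 121566 and 188043 CPM. HFD mice 1, 2 and 3 lay above every other mouse, while HFD mouse 4 lay within the control range, so all groups overlapped. The log2FC of HFD against control was 0.35 (SE 0.21, 95% interval -0.10 to 0.79, edgeR adjusted P = 0.317). Against HFD, it was -0.21 in HFD + RSV (SE 0.21, -0.65 to 0.23, edgeR adjusted P = 0.9995) and -0.32 in HFD + MET (SE 0.21, -0.76 to 0.12, edgeR adjusted P = 0.682).

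Neb, the thin filament partner of titin, gave a similar picture. It was at 22039, 17937, 12628 and 18643 CPM in the control mice and at 22931, 23797, 23536 and 16577 CPM in the HFD mice. It was at 20814, 17470, 21511 and 22067 CPM with RSV, and at 18984, 22253, 13593 and 21774 CPM with MET. HFD mouse 4 was again low in its group, and the groups overlapped. The log2FC was 0.29 for HFD against control (SE 0.20, 95% interval -0.14 to 0.71, edgeR adjusted P = 0.398). It was -0.09 for HFD + RSV and -0.18 for HFD + MET against HFD (SE 0.20 for both, edgeR adjusted P = 0.9995 and 0.803).

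Dmd encodes the membrane-linked member of the 3. It was at 562, 584, 419.9 and 589 CPM in the control mice and at 588, 642, 603 and 495 CPM in the HFD mice. It was at 615, 475, 571 and 644 CPM with RSV and at 433, 624, 410.0 and 609 CPM with MET. The mice of every group spread over most of the same range. The log2FC was 0.11 for HFD against control (SE 0.16, 95% interval -0.24 to 0.46, edgeR adjusted P = 0.711), -0.01 for HFD + RSV against HFD and -0.16 for HFD + MET against HFD (SE 0.16 for both, edgeR adjusted P = 0.9995 and 0.786).

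The test over all 4 groups, which 0.117% of genes passed, gave edgeR adjusted P = 0.665 for Ttn, 0.785 for Neb and 0.873 for Dmd. So 0 of 3 genes passed at an adjusted P below 0.05, and at an unadjusted P below 0.05 the count was also 0 of 3 in each comparison with HFD, against 24.2%, 4.72% and 8.02% of all genes. DESeq2 also called 0 of 3 in each, against 10% of all genes in HFD against control, 0.0521% in HFD + RSV and 0.202% in HFD + MET against HFD. By edgeR's adjusted P, 2.43% of all genes passed in HFD against control, 0% in HFD + RSV against HFD and 0.013% in HFD + MET against HFD. For Ttn the 95% interval ran from -0.10 to 0.79 for HFD against control. Against HFD, it ran from -0.65 to 0.23 with RSV and from -0.76 to 0.12 with MET. Changes within each interval are not excluded for that comparison.

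**Figure D1:**
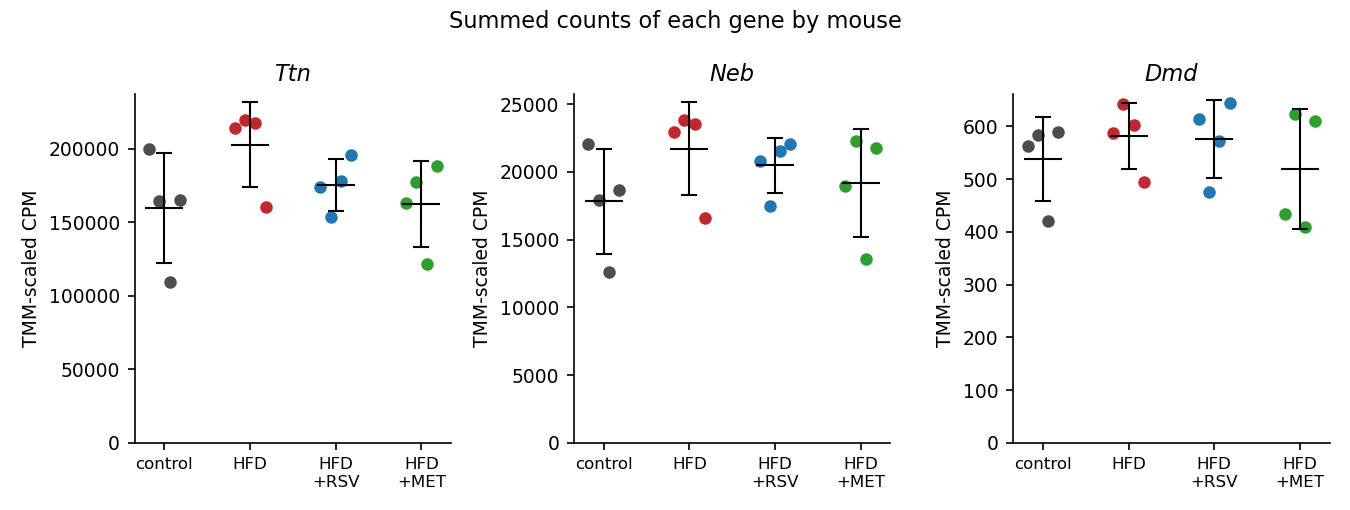
TMM-scaled CPM (y axis, linear, from 0) of the summed counts of Ttn, Neb and Dmd in the 4 groups (x axis); points are the 4 mice of a group, and the bar and whiskers give the mean ± SD. The HFD mice overlap the control mice in each panel, and the lowest control and HFD + MET mice of the Ttn and Neb panels are mouse 3 of each group.

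The 3 genes moved together from mouse to mouse. Control mouse 3 and HFD + MET mouse 3 ranked as the 2 lowest of 16 for all 3 genes, and these are the 2 mice with the highest adipocyte markers. Their skeletal muscle markers were the 2 lowest as well, at 72690 and 71325 CPM. The part of this in the level of the 3 genes was not tested, but without both mice no call changed. Over the 16 mice, Pearson's r of log2 CPM between Ttn and Neb was 0.967, and with Dmd it was 0.821 for Ttn and 0.849 for Neb. These r values are descriptions over libraries that share group, depth and tissue makeup.

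By the same measure, the genes most like Ttn were Neb, Cacna1s (r = 0.961), which encodes the voltage sensor of excitation-contraction coupling, the kinase gene Map3k20 (0.957), Drosha (0.956), which encodes the nuclease that starts miRNA maturation, and the transcription factor gene Nfix (0.949). Those most like Neb were Map3k20 (0.974), Ttn, Ubap2 (0.964), Gnl3l (0.956) and a row whose symbol had been turned into a date in the table (0.949). Those most like Dmd were Myot (0.935), which encodes the Z-disc protein myotilin, Yipf7 (0.924), Cfl2 (0.914), which encodes the muscle cofilin, Nrd1 (0.913) and Sel1l3 (0.909).

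The counts of titin were spread over transcripts very unevenly. The 4 long forms Ttn-201, Ttn-203, Ttn-204 and Ttn-205 together held 88.0% to 89.8% of Ttn counts in every mouse, and Ttn-202 held 9.20% to 10.9%. The remaining rows held the rest. The sum of the long forms was 89.1% ± 0.182 (SD, n = 4) in the control group, 89.2% ± 0.337 in HFD, 88.5% ± 0.526 in HFD + RSV and 89.5% ± 0.236 in HFD + MET.

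Within that stable sum, the single rows jumped between mice. Ttn-201 held 42.2%, 42.6%, 0% and 43.8% in the control mice and 40.8%, 42.1%, 42.6% and 35.9% in the HFD mice. It held 43.9%, 37.7%, 0% and 0% with RSV and 43.2%, 41.1%, 46.4% and 45.8% with MET. The 3 mice at 0% were control mouse 3 and HFD + RSV mice 3 and 4, while the other 13 mice lay between 35.9% and 46.4%. In counts, the row went from 0 to 2398217.

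Ttn-204 took up the difference in the resveratrol mice. It held 36.3%, 38.6%, 75.2% and 77.4% there, against 36.7%, 37.3%, 21.4% and 37.4% in the control mice. In the HFD mice it held 38.9%, 37.2%, 37.1% and 44.8%, and with MET 38.7%, 38.2%, 36.2% and 35.2%. Ttn-205 took up the difference in control mouse 3, where it held 59.6%, against 2.77% to 4.78% in the other 15 mice. Thus the mice without Ttn-201 had either of 2 rows that differ at 4 coding bases as the main row.

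Ttn-203, the longest form, held between 3.71% and 8.74%, with a group mean of 6.16% ± 1.57 in control, 5.78% ± 0.465 in HFD, 7.12% ± 1.81 in HFD + RSV and 5.00% ± 1.26 in HFD + MET (SD, n = 4). Ttn-202, with its private exon, was at 9.95% ± 0.372, 9.66% ± 0.320, 10.3% ± 0.558 and 9.56% ± 0.248 in the same order. The mice of all groups overlapped for both rows.

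**Figure D2:**
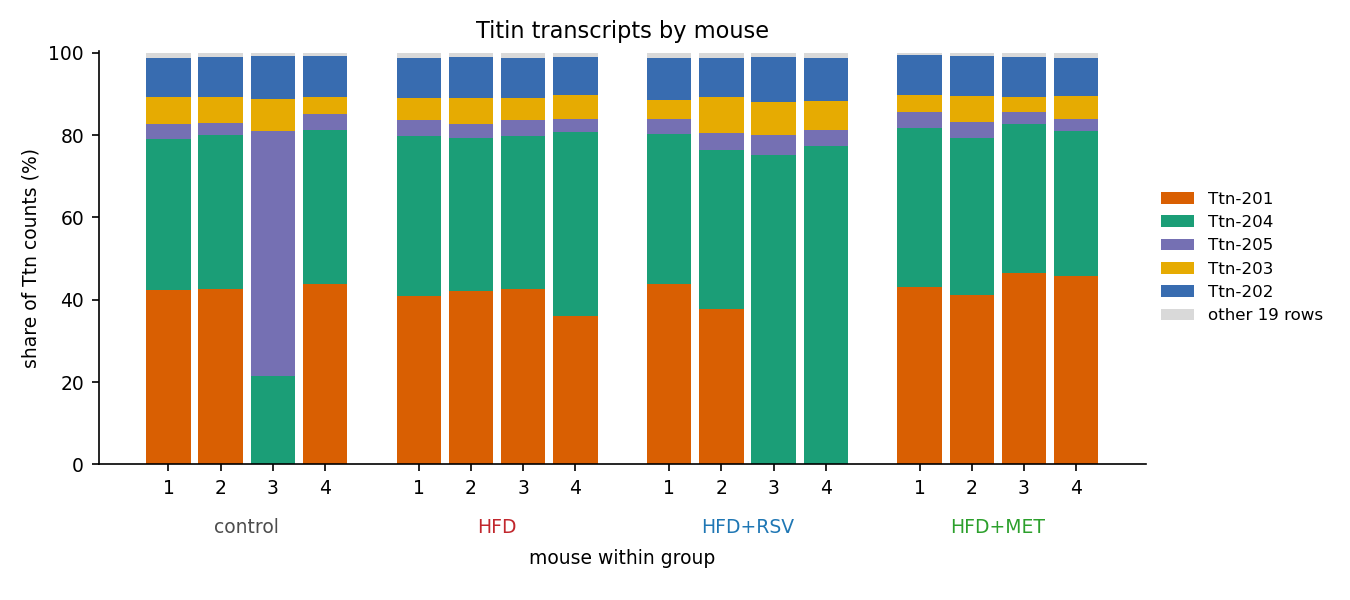
Share of Ttn counts (y axis, %) by transcript in each of the 16 mice (x axis, grouped), stacked to 100%. Control mouse 3 and HFD + RSV mice 3 and 4 have no Ttn-201 segment, and the Ttn-202 segment stays between 9.20% and 10.9% throughout.

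The group means of these shares did not differ beyond the spread between mice. For single rows the test was an exact two-sided permutation test of the 4 against 4 mice, in which the smallest possible P is 0.0286. For HFD against control the exact P was 0.971 for Ttn-201, 0.343 for Ttn-202, 0.657 for Ttn-203, 0.171 for Ttn-204 and 0.543 for Ttn-205. For HFD + RSV against HFD, the mean of Ttn-201 was 20.0 points lower and that of Ttn-204 17.4 points higher, with exact P = 0.257 and 0.343. In HFD + MET against HFD the exact P of the 5 rows ran from 0.114 to 0.571. In all, 39 such tests were run over 13 rows, and the P-values are raw.

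Per length the order of the titin forms changed. FPKM divides counts by transcript length, so that levels of different transcripts can be compared. The mean over 16 mice was 878 FPKM for Ttn-202 (SD 110), 640 for Ttn-201 (SD 328), 631 for Ttn-204 (SD 240), 91.4 for Ttn-205 (SD 144) and 84.4 for Ttn-203 (SD 20.7). The short Ttn-202 thus had the highest mean level per length, although it held only 9.87% of the counts on average. It ran from 669.6 to 1028 FPKM, and in HFD + RSV mice 3 and 4 Ttn-204 was higher, at 1144 and 1229 FPKM. The lead over Ttn-201 was within the spread of Ttn-201. Ttn-201 and Ttn-204 did not differ beyond their spread, nor did Ttn-205 and Ttn-203.

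As a share of summed FPKM, the group means were 29.9% to 31.7% for Ttn-202, 12.7% to 28.7% for Ttn-201 and 17.6% to 29.7% for Ttn-204. The heart marker genes summed to 3.50 to 35.6 CPM. No value in the tables counts reads per exon, so it was not tested whether the large exon that marks Ttn-201 was itself read.

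Nebulin showed the same picture with 2 rows. Neb-202 and Neb-203 together held 47.6% to 52.9% of Neb counts in every mouse. Neb-201 (74 exons, 10298 bases, 3044 residues, 1356 private bases), a shorter form that covers the 3′ part, held 31.4% to 33.4%, and Neb-209, a 3570-base fragment, held 8.30% to 12.2%.

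Neb-202 held 35.9%, 17.5%, 41.3% and 41.0% in the control mice and 11.9%, 36.1%, 10.3% and 6.19% in the HFD mice. It held 27.1%, 36.6%, 49.7% and 42.2% with RSV and 5.04%, 44.1%, 36.7% and 38.2% with MET. Neb-203 filled the remainder, with 14.6%, 34.0%, 10.5% and 11.7% in the control mice and 39.3%, 16.1%, 39.5% and 41.4% in the HFD mice. It held 25.8%, 14.6%, 2.36% and 10.001% with RSV and 45.4%, 7.09%, 15.1% and 12.4% with MET. HFD mice 1, 3 and 4 carried mainly the Neb-203 row, as did control mouse 2 and HFD + MET mouse 1, while HFD mouse 2 resembled most control mice.

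The mean share of Neb-202 was 33.9% ± 11.2 in control, 16.1% ± 13.6 in HFD, 38.9% ± 9.54 in HFD + RSV and 31.02% ± 17.6 in HFD + MET (SD, n = 4). The difference of HFD from control was -17.8 points (exact permutation P = 0.0857), and that of HFD + RSV from HFD was 22.8 points (exact permutation P = 0.0571). For Neb-203 the differences were 16.4 points (exact permutation P = 0.0571) and -20.9 points (exact permutation P = 0.0571). With metformin the differences from HFD were 14.9 and -14.1 points (exact permutation P = 0.286 and 0.314). None passed 0.05, and the groups overlapped through HFD mouse 2 in particular.

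The count test of usage depended on single mice too. edgeR's diffSpliceDGE called neither row with all mice. Without HFD mouse 2 it called Neb-202 in HFD against control (adjusted P = 0.0424) and in HFD + RSV against HFD (adjusted P = 0.0129). Without HFD + RSV mouse 1 it called Neb-203 in HFD + RSV against HFD (adjusted P = 0.0173). The share of all transcripts called without these mice is not given here. The mean share of Neb-201 was 32.1% ± 0.515 in control, 32.3% ± 0.858 in HFD, 32.0% ± 0.281 in HFD + RSV and 32.0% ± 0.448 in HFD + MET. Its exact P was 0.857, 0.657 and 0.686 in the 3 comparisons. Neb-209 had 9.27% ± 0.391, 10.1% ± 1.46, 8.82% ± 0.557 and 9.23% ± 0.892 (SD, n = 4).

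Per length, Neb-201 was highest with a mean of 530.0 FPKM (SD 58.5, 16 mice), then Neb-209 with 445 (SD 59.0), Neb-202 with 227 (SD 117) and Neb-203 with 169 (SD 115). The last 2 did not differ beyond their spread.

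**Figure D3:**
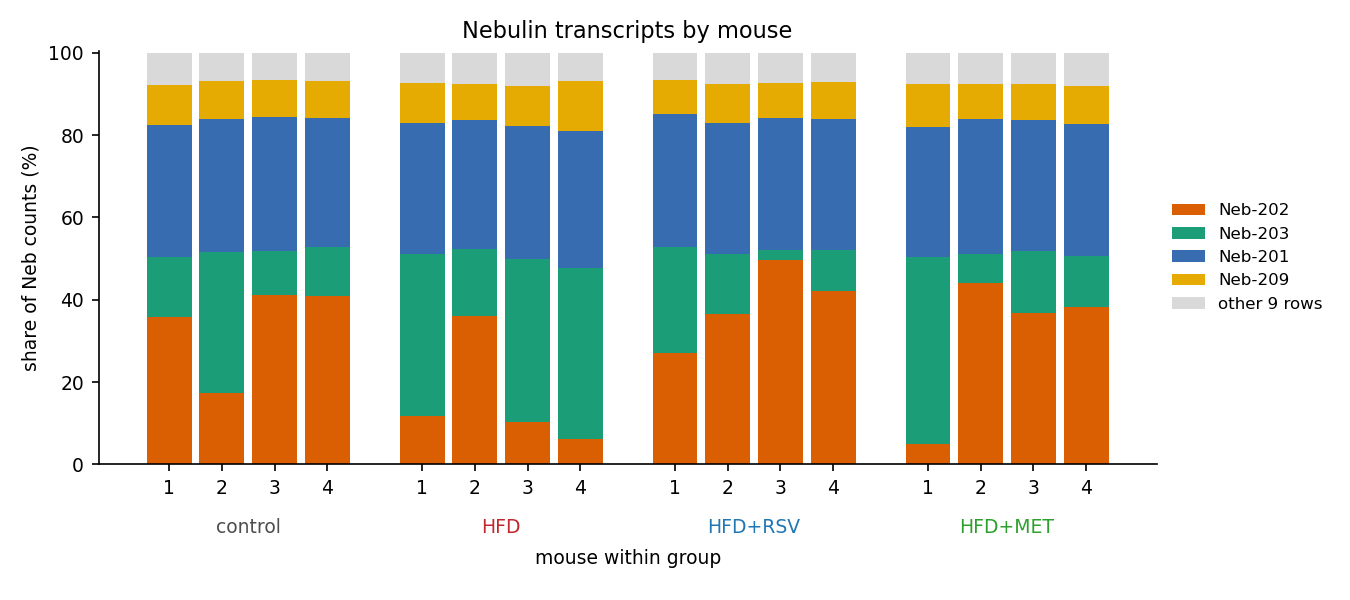
Share of Neb counts (y axis, %) by transcript in each of the 16 mice (x axis, grouped), stacked to 100%. The border between Neb-202 and Neb-203 moves from mouse to mouse, from 5.04% to 49.7% for Neb-202, while Neb-201 stays between 31.4% and 33.4%.

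By counts, dystrophin was almost wholly the full-length form. Dmd-203 held 92.5%, 94.2%, 92.8% and 93.5% of Dmd counts in the control mice and 94.1%, 94.2%, 93.6% and 94.9% in the HFD mice. It held 94.0%, 89.8%, 93.8% and 93.0% with RSV and 93.1%, 93.3%, 91.6% and 93.5% with MET. All 4 HFD + MET mice lay below all 4 HFD mice, by 1.32 points in the mean (exact permutation P = 0.0286, the smallest that 4 against 4 mice can give, raw over 39 tests). The nearest mice, however, were at 93.46% and 93.58%. Of all transcripts tested for usage, 3.35% had shares without overlap in this comparison. By diffSpliceDGE the row was not called (unadjusted P = 0.966). The other comparisons gave exact P = 0.143 for both.

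The short C-terminal rows were scarce. Dmd-202 held 0.265% to 0.520% of Dmd counts, from 31 to 67 counts a mouse. Dmd-201 held 0% to 3.69%, from 0 to 405 counts, with the highest value in HFD + RSV mouse 2, whose Schwann cell markers were also the highest of 16 at 323 CPM. Control mouse 2, next highest in Schwann cell markers at 164 CPM, was the mouse with Dmd-201 at 0. The part of Schwann cells in these values was not tested. Both rows have 0 private bases. Dmd-203 covers 98.9% of Dmd-201 and 97.5% of Dmd-202, and the 47 bases that it lacks are in both short rows.

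Per length, Dmd-203 was at 29.9 FPKM (SD 3.28, range 24.3 to 33.9, 16 mice), Dmd-202 at 0.972 (SD 0.197) and Dmd-201 at 0.778 (SD 0.9002). So Dmd-203 was above both short rows in all mice, and those 2 did not differ beyond their spread. The exact P for their shares ran from 0.229 to 0.971 over the 3 comparisons. Summed over all Dmd rows, the group means were 43.6 to 46.7 FPKM. Dmd-203 thus held a smaller part of the summed FPKM than of the counts.

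Dmd-205, a retained-intron transcript, was the second row of the gene with 2.08% to 4.48%. Every other Dmd row averaged below 1%.

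**Figure D4:**
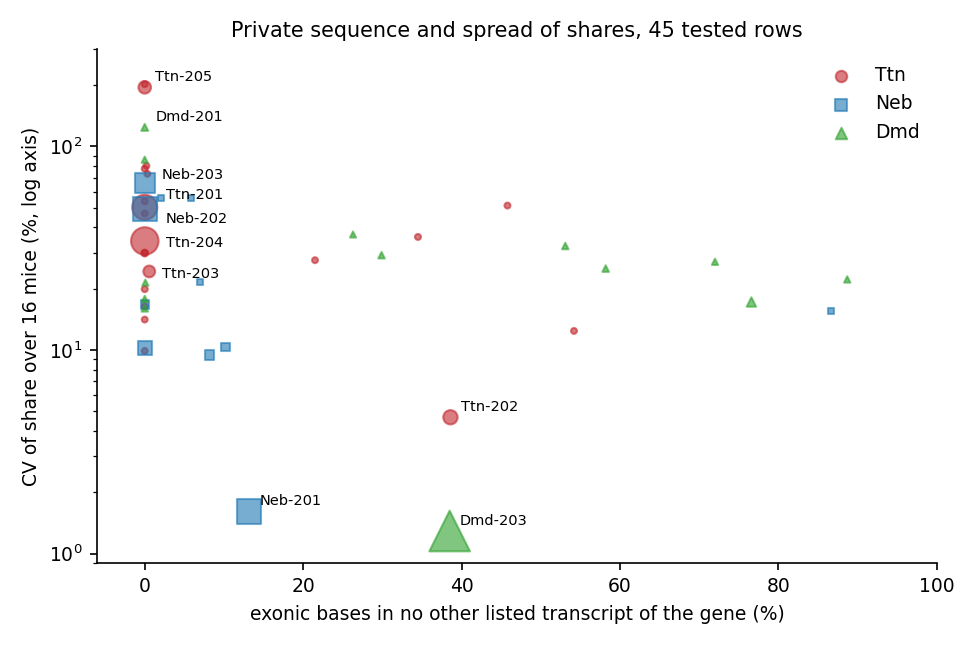
Coefficient of variation of the share over 16 mice (y axis, %, log axis) against the percentage of exonic bases that no other listed row of the gene covers (x axis), for the 45 rows that passed the filter. Marker area grows with the mean share, and of the large markers those with private sequence (Ttn-202, Neb-201, Dmd-203) lie lowest.

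Among the abundant rows, the 3 whose shares varied least relative to their mean had many bases of their own. The coefficient of variation (CV, SD over mean) of the share over 16 mice was 1.29% for Dmd-203, 1.61% for Neb-201 and 4.67% for Ttn-202, which have 38.5%, 13.2% and 38.6% private bases. It was 34.3% for Ttn-204, 49.4% for Neb-202, 50.2% for Ttn-201, 66.1% for Neb-203 and 195% for Ttn-205, of which each has at most 0.0886% private bases. Neb-209, with 0 private bases, was an exception at 10.2%. A mean share of 93.2%, as for Dmd-203, leaves little room for a large CV. In points, the SD of the share was 1.20 for Dmd-203 and 0.956 for Neb-209. Over all 45 tested rows the relation was weak, with a Spearman's rho of -0.259 as a description, since rows of a gene share their counts. The 18 tested rows without private bases had a CV of at least 9.89% (median 29.95%), and the 19 with at least 5% private bases had 1.29% to 55.8% (median 22.2%).

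At the level of single rows, 45 of the 51 passed the filter and 44573 transcripts were tested. By edgeR's adjusted P, 0 of 45 were called in HFD against control, HFD + RSV against HFD and HFD + MET against HFD, where 0.0157%, 0% and 0.00449% of all transcripts were called. At an unadjusted P below 0.05 there were 9, 3 and 3 of 45, against 13.1%, 5.02% and 6.07% of all transcripts. The study's criterion was a P below 0.05 with an absolute log2FC above 1. The paper states that controlling the false discovery rate set the threshold of P. Here the criterion was applied to the unadjusted P. By it, 5 rows of 45 passed in HFD against control, 1 with RSV and 2 with MET. The background of that criterion was 5.12%, 2.68% and 3.02% of all transcripts. With DESeq2, 3, 1 and 1 rows had an adjusted P below 0.05: Ttn-210, Ttn-215 and Ttn-217 in HFD against control, and Ttn-215 in the other comparisons. DESeq2 called 3.23%, 0.359% and 0.39% of all transcripts.

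Of the 5 rows that passed the study's criterion in HFD against control, 4 were Ttn rows. Ttn-205 was named for its share and Ttn-215 because its usage P passed, so for its values, and the others were chosen after their values were seen. Ttn-217 (ENSMUST00000147048, 6 exons, 2093 bases, chr2:76973057-76982547) is a retained-intron transcript at the 5′ end of the gene with 45.8% private bases. Its counts were 748, 1143, 1212 and 817 in the control mice and 3972, 4187, 3767 and 2725 in the HFD mice. They were 3010, 900, 3230 and 1331 with RSV and 744, 3704, 755 and 4507 with MET. The HFD mice lay above all control mice, and each treated group split into 2 high and 2 low mice. The log2FC of HFD against control was 1.94 (SE 0.51, edgeR adjusted P = 0.172, DESeq2 adjusted P = 0.00765).

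Ttn-215 (ENSMUST00000140091, 12 exons, 2159 bases, chr2:76965096-76982547) overlaps the same 5′ region, and all of its bases are also in Ttn-207. It was counted 212, 375, 226 and 219 times in the control mice and 0 times in each HFD mouse. It was counted 0, 259, 0 and 325 times with RSV and 1541 times in mouse 3 with MET. In MET mouse 1 it had its lowest count above 0, a share of 0.00688%, and MET mice 2 and 4 had 0. Taking 3 counts per library as the limit that a count of 0 allows, the estimated count was at least 93.2-fold lower in HFD than in control. This limit covers counting error only. It does not cover how reads shared with other rows were divided, and Ttn-215 has 0 private bases. So no lower bound on the change of the transcript itself follows. The share of Ttn-215 was 0.00708% of Ttn counts in control and 0% in HFD, a description with no test, since the row was named for this difference.

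The counts of these 2 rows were opposed. In the 8 mice with Ttn-215 at 0, Ttn-217 had 2725 to 4507 counts, and in the other 8 it had 744 to 1331. The rows share 1134 exonic bases.

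**Figure D5:**
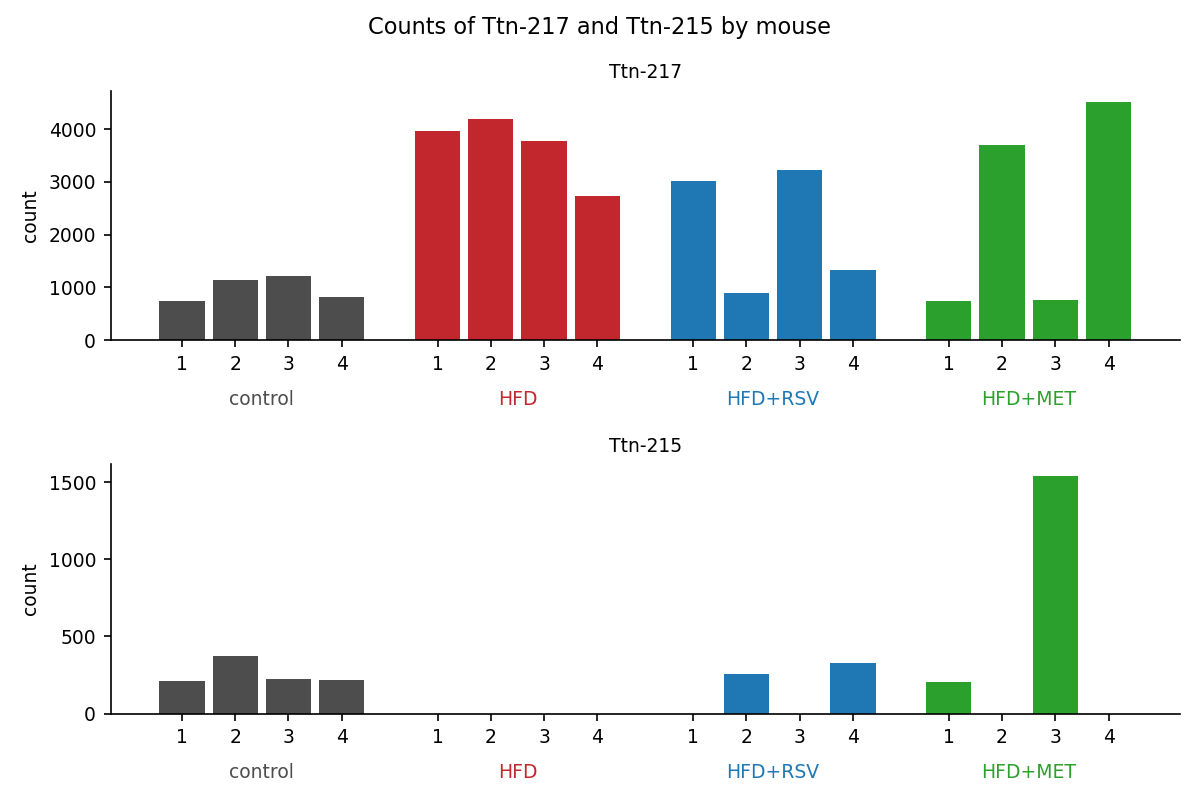
Counts (y axis, linear, from 0) of Ttn-217 (top) and Ttn-215 (bottom) in each of the 16 mice (x axis, grouped). Every mouse without a Ttn-215 bar has at least 2725 Ttn-217 counts, and all 4 HFD mice are among them.

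diffSpliceDGE called Ttn-215 and no other row of the 3 genes in each of the 3 comparisons (adjusted P = 0.000181, 0.000814 and 6.83e-05), where it called 0.678%, 0.649% and 0.59% of all transcripts tested for usage. In the 2 treatment comparisons, however, the shares of the groups overlapped. Usage tests by limma and by edgeR with the gene's sum as offset called 0 of 45 rows in each comparison. They called few transcripts anywhere, 0.00776%, 0.00517% and 0.0129% with limma and 0.00259%, 0.00259% and 0.00517% with the offset. On simulated data for HFD against control, diffSpliceDGE recovered 3.7% of 244 changed transcripts with 102 false calls and limma 8.6% with 1, so neither a call nor its absence is strong evidence here. Tested per gene, usage gave diffSpliceDGE adjusted P = 0.0992 for Ttn, 0.0919 for Neb and 1 for Dmd in HFD against control, where 3.56% of genes were called. It gave 0.607, 0.115 and 0.939 for HFD + RSV and 0.186, 0.912 and 1 for HFD + MET against HFD, where 2.42% and 2.2% of genes were called.

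The other rows past the study's criterion in HFD against control were Ttn-210, Neb-208 and Ttn-205. Ttn-210 (629 residues) had 142, 185, 51 and 129 counts in the control mice and 409, 540, 404 and 309 in the HFD mice, a log2FC of 1.69 (SE 0.51, edgeR adjusted P = 0.200). Neb-208, a processed transcript that covers the region of the alternative exons, had 626, 2078, 628 and 1533 counts in control and 458, 858, 675 and 265 in HFD, a log2FC of -1.06 (SE 0.47, edgeR adjusted P = 0.354). Ttn-205 had a log2FC of -1.49 (SE 0.66, edgeR adjusted P = 0.352), which rests on control mouse 3. With MET, Ttn-223 also passed that criterion, at -1.61 (SE 0.55, edgeR adjusted P = 0.808).

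Counted over the 45 tested rows, the shares of 5 did not overlap between HFD and control mice (11.1%), against 5.95% of all transcripts. These were Ttn-210, Ttn-215, Ttn-217, Neb-208 and Neb-211. It was 1 row, Dmd-214, for HFD + RSV against HFD (2.22%, against 3.15%). For HFD + MET against HFD it was 3 rows, Dmd-203, Ttn-207 and Ttn-223 (6.67%, against 3.35%). Rows of a gene share their counts, so these are not independent.

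Transcripts of the lncRNA table also lay inside the 3 genes. Within Ttn there were 8, with a sum of 754 to 1938 counts a mouse (at most 0.0409% of the Ttn counts). Within Neb there were 8 with 1147 to 3348 counts (at most 0.611%), mainly a transcript at chr2:52155526-52158360 that covers the 93-base exon of Neb-203. Within Dmd there were 25 with 1644 to 3914 counts, which is 17.5% to 25.1% of the Dmd counts. The lncRNA table gives no strand, so reads of the gene and of these transcripts cannot be told apart.

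The partners of the 3 proteins were read from 5 lists. Of 25 titin partners (the calpain, telethonin, ankyrin-repeat and ring-finger proteins that bind titin), 0 passed the adjusted test in any comparison, where their median log2FC was 0.09, -0.02 and -0.12 for HFD against control, HFD + RSV and HFD + MET against HFD. The medians of all genes were -0.02, 0.00 and 0.02. Trim63 (the ubiquitin ligase MuRF1) had the values -0.85, -0.15 and -0.25 (edgeR adjusted P = 0.0997 for the first), Obsl1 0.93, -0.57 and -0.63 (0.0791), and Trim55 (MuRF2) 0.61, -0.09 and -0.18 (0.0895). The unadjusted P was below 0.05 for 9, 1 and 1 of the 25. Over all genes the adjusted P passed for 2.43%, 0% and 0.013% and the unadjusted P for 24.2%, 4.72% and 8.02%.

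Of 21 nebulin and thin filament genes, 0 passed, with medians of 0.15, 0.04 and -0.13 and an unadjusted P below 0.05 for 8, 1 and 1 (all genes 24.2%, 4.72% and 8.02%). The smallest P-values belonged to slow-fibre genes. Tpm3, slow tropomyosin, had a log2FC of -1.78 in HFD against control (SE 0.47, edgeR adjusted P = 0.0583), and Tnnt1, slow troponin T, had -3.44 (SE 1.01, edgeR adjusted P = 0.0739). Tnnt1 was at 1.71, 59.7, 28.0 and 34.8 CPM in the control mice and at 0.729 to 7.11 CPM in the HFD mice. The summed slow-fibre markers, which include both genes, were 118 CPM in control mouse 1 and 1321 to 2597 CPM in the other control mice, against 132 to 295 CPM in HFD. Kbtbd13, a nemaline myopathy gene, had 0.58 (SE 0.20, edgeR adjusted P = 0.0997).

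Of 23 genes of the dystrophin complex, 1 rose in HFD against control and 0 passed in the other comparisons, with medians of 0.19, -0.01 and -0.10 and an unadjusted P below 0.05 for 9, 0 and 1. Over all genes 2.43% passed the adjusted test in HFD against control, and the unadjusted P passed for 24.2%, 4.72% and 8.02%, so a single call is near the background. That gene was Sgcd, delta-sarcoglycan, a membrane partner of dystrophin. It was at 56.4, 50.8, 49.6 and 57.7 CPM in the control mice and at 66.5, 76.6, 66.7 and 67.1 CPM in the HFD mice, without overlap (log2FC 0.37, SE 0.09, edgeR adjusted P = 0.0491). Against HFD it was at -0.19 with RSV and -0.22 with MET (edgeR adjusted P = 0.9995 and 0.618). The sarcoglycan genes Sgcb and Sgca had 0.40 and 0.50 in HFD against control (edgeR adjusted P = 0.0896 and 0.0958).

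Of 19 splicing factors of muscle, 1 fell in HFD against control and 0 passed elsewhere, with medians of -0.03, 0.02 and 0.05 and an unadjusted P below 0.05 for 7, 1 and 3 (all genes 2.43% by adjusted P in HFD against control, and 24.2%, 4.72% and 8.02% unadjusted). It was Srsf5, a serine- and arginine-rich splicing factor, at 92.8, 97.6, 99.0 and 93.1 CPM in the control mice and at 69.6, 71.4, 68.6 and 73.1 CPM in the HFD mice (log2FC -0.44, SE 0.11, edgeR adjusted P = 0.0478). Tia1 had 0.41 and Mbnl3 -1.74 in the same comparison (edgeR adjusted P = 0.104 for both).

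Of 20 other giant muscle genes, 1 fell in HFD against control and 0 passed elsewhere, with medians of 0.10, -0.06 and -0.10 and an unadjusted P below 0.05 for 6, 1 and 2 (all genes again 2.43% by adjusted P in HFD against control, and 24.2%, 4.72% and 8.02% unadjusted). Syne1, which encodes nesprin-1, a giant protein that ties nuclei to the cytoskeleton, was at 515, 495, 460.4 and 465 CPM in the control mice and at 297, 320.1, 293 and 325 CPM in the HFD mice. The groups did not overlap (log2FC -0.65, SE 0.10, edgeR adjusted P = 0.0120). Syne1 was at 345 to 415 CPM with RSV and 323 to 399 CPM with MET, and against HFD its log2FC was 0.29 and 0.27 (edgeR adjusted P = 0.9995 and 0.607). In the same comparison, the ranges of some marker lists differed as well, which was not tested. Endothelial markers summed to 281 to 389.6 CPM in control and 246 to 280.2 CPM in HFD, Schwann cell markers to 46.1 to 164 and 31.2 to 37.7 CPM, and adipocyte markers to 644 to 3338 and 83.6 to 706 CPM, while fast-fibre markers were at 76694 to 108250 CPM in control and 108300 to 116790 CPM in HFD. The endothelial and fast-fibre ranges nearly touched. The adipocyte ranges overlapped, as did those of the fibroblast, smooth muscle, macrophage and blood markers. Skeletal muscle markers overlapped too, at 72690 to 98787 CPM in control and 96837 to 103930 CPM in HFD. All members of these lists were above 0, and their part in the changes of Sgcd, Srsf5 and Syne1, or in the levels of Ttn and Neb, was not tested. Sgcd and Srsf5 lay close to the threshold, and the list genes were not refitted with single mice left out. Syne2, the paralogue of Syne1, had -0.63 in HFD against control (SE 0.23, edgeR adjusted P = 0.113).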

How the data were processed

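Skeletal muscle RNA of 16 mice was rRNA-depleted and sequenced on an Illumina NovaSeq. The authors counted fragments per transcript with StringTie, and the submitters' processing notes name fastp and HISAT2 with GRCm38. The authors deposited expected counts as whole numbers, without normalization, and FPKM per transcript and mouse. The deposited FPKM equalled counts over length and over the total of both tables within 0.01%. StringTie divides the reads that several transcripts share by a model, so rows with few private bases are estimates. The 4 rows split over 2 lines were joined.

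Counts per gene name or per row of the whole mRNA table were filtered (filterByExpr, minimum 10) and fitted with edgeR 4.0.16 in R 4.3.3 (TMM, quasi-likelihood, 4 groups in 1 fit, adjusted P below 0.05). Usage was tested with diffSpliceDGE, and shares with exact permutations. limma and DESeq2 1.42.0 were alternatives. On simulated data for HFD against control, with 200 features changed by 2 on the log2 scale, the gene fit over 15364 genes recovered 95% and the transcript fit over 44573 transcripts 43.5%. The usage figures are in the text.

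Members, gene lists and marker lists were chosen with earlier results of these data known. Rows were named where the mean share was at least 5%, where an adjusted P passed, or for the Dmd forms. For each list the 3 genes with the smallest P over 4 groups and those called were named. P-values cover the spread between these mice, and zero-count limits cover counting error only.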

Additional observations from a re-analysis of the deposited data

Results flagged for a closer look

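Values of single mice lay far from the other 3 mice of their group in 8 cases, by Dixon's ratio of gap to range at its 95% critical value. In all, 64 groups were looked at, and chance alone marks about 1 in 20.

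Ttn and Neb were low in HFD mouse 4, at 160000 CPM against 214000 to 219300 CPM for Ttn and at 16580 CPM against 22930 to 23800 CPM for Neb. Dmd was low in control mouse 3, at 419.9 CPM against 562 to 588.8 CPM. The same mouse had no Ttn-201 (0% against 42.25% to 43.79%), a low Ttn-204 share (21.44% against 36.71% to 37.4%) and a high Ttn-205 share (59.57% against 2.982% to 4.014%). HFD mouse 2 had a Neb-203 share of 16.12% against 39.31% to 41.43%. HFD + MET mouse 3 had a Ttn-215 share of 0.05355% against 0% to 0.006878%.

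In the lncRNA table, which no group comparison used, an assembled transcript inside Dmd (MSTRG.46264.46) had 474 counts in HFD mouse 3, at most 8 in any other mouse and 0 in every control mouse. An overlapping assembled transcript, MSTRG.46264.45, had its lowest count in HFD mouse 3, at 935 against 1025 to 2201 in the other mice. How reads were divided between these rows was not tested.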

How the results depend on the processing

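No paired analysis was possible because no numbering in the labels ties a mouse of 1 group to a mouse of another. The 9 gene-level log2FC values stayed short of the threshold under 21 alternatives each (RLE size factors, no filter, DESeq2, only the 2 groups compared, 1 mouse left out, and, chosen after seeing the data, both mice low in all 3 genes left out). Only Dmd in HFD + RSV against HFD changed sign, to 0.04 without HFD mouse 2, 0.0041 without HFD mouse 3 and 0.0703 without HFD + RSV mouse 2. Over all 16 left-out mice it ran from -0.0839 to 0.0703. Leaving out 1 mouse gave 0.20 to 0.47 for Ttn, 0.15 to 0.41 for Neb and 0.01 to 0.18 for Dmd in HFD against control.

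Transcripts called rose from 0 to 3, 1 and 1 with DESeq2 and to 5, 1 and 2 by the study's criterion (HFD against control, HFD + RSV and HFD + MET against HFD; DESeq2 called 3.23%, 0.359% and 0.39% of all transcripts), and to 2 in HFD against control when only those groups were fitted. They stayed at 0 with 1 mouse left out. Usage calls went from 1 to 2 in HFD against control and in HFD + RSV against HFD without a filter. They went to 0 in both treatment comparisons when only the 2 groups were fitted, and to 0 in all 3 with limma and with the edgeR offset, a test added after seeing the data. With 1 mouse left out they ranged from 1 to 2 in HFD against control, 1 to 3 in HFD + RSV and 1 to 1 in HFD + MET. No share of all transcripts called is given for the fits without a filter, of only 2 groups or with 1 mouse left out. Those counts therefore have no background beside them. The cause of these changes in the counts was not tested.

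Of 52 group means of shares, 46 moved by more than 1 SD as shares of FPKM, which weights short transcripts more, and 7 when lncRNA counts of the span, any strand, were added to the denominator. The same-strand version was not run because the table gives no strand. With 4 mice a group, exact tests cannot go below 0.0286.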
